A study of Mus musculus with 4 samples.

Results

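The annexins are a family of proteins that bind acidic phospholipids on the inner face of cell membranes when calcium rises. Each is built of a core of repeated annexin domains, which carries the calcium sites, and of an N-terminal tail that differs between members and holds the docking sites for partner proteins. In epidermal keratinocytes they are known for work in membrane trafficking, membrane repair, the cortical cytoskeleton and the cornified envelope. The 9 genes described here are Anxa1, Anxa2, Anxa3, Anxa4, Anxa5, Anxa6, Anxa7, Anxa8 and Anxa11, taken by symbol from a table of 55401 genes. They are 9 of the 12 annexin genes of that table. They were chosen by family name with the counts and the diet differences of these libraries in view, so the diet comparison of the members is a description, and no p-value is given for them.

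The RNA came from hair follicle stem cells of C57BL/6 mice during anagen, when the follicle grows, and was sequenced as RNA-seq libraries. The mice had received a high-fat diet (HFD) for 4 months or a normal diet (ND), with 2 libraries per diet. No transgene or other treatment is named for either group, and the labels give neither age nor the method of cell isolation. Nothing states that 2 libraries of 1 diet are from different animals, so their spread may be technical.

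Libraries held between 8590570 and 9940848 counts, and a floor of 3 counts was worth 0.291 to 0.359 CPM, the unit used for counts scaled by TMM, a trimmed mean of ratios between libraries. Replicates differed by more than sampling noise, with a chi-square per degree of freedom of 6.87 for the HFD pair and 14.9 for the ND pair. The stem cell label was checked against markers of the bulge, the stem cell niche of the follicle. All 9 were detected in every library, and, led by the keratin gene Krt15, they summed to 6320 and 6272 CPM with HFD and to 5771 and 6315 CPM with ND. Gene lists taken as markers of the epidermal layers differed with diet: 6 basal epidermal genes summed to 15475 and 14145 CPM with HFD, against 10011 and 11511 CPM with ND. Whether the stem cells themselves expressed the basal genes, led by the keratin gene Krt5, was not tested. The 7 suprabasal genes summed to 4024 and 4976 CPM with HFD, against 1193 and 2724 CPM with ND, and ND replicate 1 was the lowest library in both lists. By edgeR 3 of 6 basal, 3 of 7 suprabasal and 4 of 7 upper follicle markers were called higher, and 0 lower in each list. Over all genes tested 1.12% were called higher and 0.228% lower. The upper follicle markers had a median log2 fold change of 0.65. Their sums, led by Krt17 at a mean of 2348 CPM, overlapped, at 3910 and 3420 CPM with HFD, against 4194 and 3297 CPM with ND. Fibroblast, endothelial, immune, melanocyte, adipocyte and muscle markers each summed to at most 80.7 CPM in any library. Fibroblast sums were 80.7 and 64.7 CPM with HFD, against 45.0 and 56.5 CPM with ND, and immune sums 53.5 and 65.9 CPM with HFD, against 23.6 and 45.5 CPM with ND. Among markers of other cells, Adipoq, Plin1, Lep and Myh4 had 0 counts throughout.

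The members differ in the length of the coding sequence, which follows the architecture of the protein. In the GENCODE annotation of mouse build GRCm38 the longest coding sequence of Anxa6, whose core is duplicated, had 673 codons in 25 exons. Those of Anxa11 and Anxa7, which have long tails, had 503 and 485 codons. The other 6 lay between 319 codons, for Anxa4 and Anxa5, and 346 codons, for Anxa1, each in 12 coding exons. No stretch of 31 bases was shared between the transcripts of any pair of members, so a read that holds such a stretch matches 1 member only. Anxa11 shared 17.2% of its 31-base stretches with other genes, mostly with Gm2260 and Gm2274 on the same chromosome. Gm2260 had 14 and 4 counts with HFD, against 22 and 10 counts with ND. By shared sequence alone, the level of Anxa11 is thus less certain than those of the other members. Next came Anxa4 and Anxa3, with 4.42% and 2.75% of their stretches shared, with 4051 and 47 genes.

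The start regions of the genes that carry the diet difference, Anxa8, Anxa2 and Anxa1, are shown with that of Anxa5, whose level differed little, because the first 3 were higher together with HFD. Each window runs from 250 bases before to 50 bases after the RefSeq transcript start (GRCm38.p6), 5′ to 3′ on the gene's own strand. Capitals mark the TATA box (TATAAA) and the AP-1 motif (TGANTCA) on either strand, and none of these matches overlapped another. Anxa8 lies at chr14:34085729-34086028 (plus strand), Anxa2 at chr9:69453433-69453732 (plus strand), Anxa1 at chr19:20390622-20390921 (minus strand) and Anxa5 at chr3:36475838-36476137 (minus strand).
Anxa8: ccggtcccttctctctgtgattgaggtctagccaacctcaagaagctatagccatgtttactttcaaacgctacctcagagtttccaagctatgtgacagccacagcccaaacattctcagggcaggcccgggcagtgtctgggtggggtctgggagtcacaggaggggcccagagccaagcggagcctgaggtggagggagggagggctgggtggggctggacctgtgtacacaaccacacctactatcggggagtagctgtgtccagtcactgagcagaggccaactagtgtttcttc
Anxa2: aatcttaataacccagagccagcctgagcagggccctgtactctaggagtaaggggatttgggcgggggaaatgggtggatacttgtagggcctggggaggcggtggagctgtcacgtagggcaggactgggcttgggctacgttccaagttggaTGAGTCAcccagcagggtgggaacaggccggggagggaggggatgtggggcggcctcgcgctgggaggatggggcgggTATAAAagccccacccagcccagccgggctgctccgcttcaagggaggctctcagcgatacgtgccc
Anxa1: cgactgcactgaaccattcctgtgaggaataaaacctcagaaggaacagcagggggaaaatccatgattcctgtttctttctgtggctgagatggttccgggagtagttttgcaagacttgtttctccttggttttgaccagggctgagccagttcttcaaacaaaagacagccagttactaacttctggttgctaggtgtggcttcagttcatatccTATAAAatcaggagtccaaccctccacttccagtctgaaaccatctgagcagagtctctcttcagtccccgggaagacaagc
Anxa5: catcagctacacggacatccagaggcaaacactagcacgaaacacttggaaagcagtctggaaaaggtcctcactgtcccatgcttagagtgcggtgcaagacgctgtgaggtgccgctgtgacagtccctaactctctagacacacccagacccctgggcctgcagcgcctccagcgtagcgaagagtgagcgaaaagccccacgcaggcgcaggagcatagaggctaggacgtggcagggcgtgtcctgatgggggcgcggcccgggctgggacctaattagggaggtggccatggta

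Anxa1 held a TATA box that began 32 bases before its RefSeq start, and Anxa2 held one that began 17 bases before its RefSeq start. Of all 32851 promoter windows 13.6% hold that motif on either strand. GENCODE places the starts of Anxa1 and Anxa2 further upstream, at 20390944 and 69453620. Both TATA boxes thus lie inside the genes as GENCODE annotates them. Anxa2 also held 1 AP-1 motif, at 95 bases before the start, which 7.81% of windows hold, and 3 GC boxes (GGGCGG), which 35.7% of windows hold at least once. Anxa8 and Anxa5 held none of these letters, nor a CCAAT box (CCAAT, 37.4% of windows) or the NFI motif TTGGCA (14.1%). The Anxa8 and Anxa1 windows had 5 and 3 CpG dinucleotides, fewer than the median of 7 over all windows, whereas Anxa2 and Anxa5 had 13 and 16. None of the 5 motifs was found as an exact match in all 3 windows of the genes that were higher together. Inexact matches, other motifs and sequence outside the windows were not searched, and shared regulation was not tested. RefSeq windows were matched for 7 members; Anxa3 and Anxa6 were not matched.

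Levels are compared between genes in FPKM, the deposited counts scaled by exonic length and library total. Anxa8 was the most abundant annexin in every library, at 284 and 282 FPKM with HFD, against 160 and 176 FPKM with ND. Anxa2 came second, at 152 and 147 FPKM with HFD, against 103 FPKM in each ND library. Averaged over the 4 libraries these genes ranked 119th and 238th of the 14479 genes tested. Anxa1 and Anxa5 followed with mean FPKM of 71.5 and 64.3, and their ranges over the libraries overlapped: Anxa1 was above Anxa5 in both HFD libraries, and of the ND libraries in neither. Anxa6 was next, at a mean of 36.1 FPKM. Anxa7 and Anxa4 had 16.3 and 16.0 FPKM and could not be ordered over all libraries. Anxa7 was above Anxa4 in both HFD libraries and below it in both ND libraries, though narrowly in ND replicate 1, at 15.4 against 15.6 FPKM. Anxa11 averaged 2.88 FPKM and Anxa3 0.76 FPKM. Apart from the pairs Anxa1 with Anxa5 and Anxa7 with Anxa4, no neighbours in this order overlapped in range.

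Together the members took 0.178% and 0.174% of all counts with HFD, against 0.127% and 0.125% with ND. In FPKM they summed to 664 and 653 with HFD, against 465 and 457 with ND. The added transcripts lay mostly in the 3 genes Anxa8, Anxa2 and Anxa1, which made up 79.5% and 78.7% of the family's FPKM with HFD and 69.3% and 72.1% with ND. The share of Anxa8 alone was 42.8% and 43.1% with HFD, against 34.4% and 38.5% with ND, while that of Anxa2 lay between 22.2% and 22.9% in all 4 libraries. Anxa6 had 4.67% and 5.51% of the family with HFD, against 8.41% and 8.37% with ND.

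**Figure D1:**
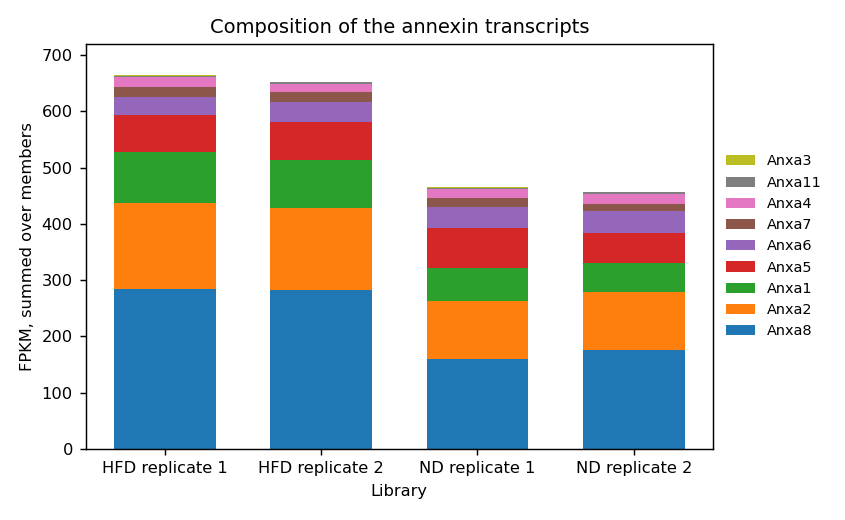
Stacked bars give the deposited FPKM of each of the 9 annexin genes in each library (y axis: summed FPKM; x axis: library). The HFD bars reach 664 and 653 FPKM and the ND bars 465 and 457 FPKM, and the blue Anxa8 segment is the tallest in every bar.

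The diet comparison sets 4 months of high-fat feeding against the normal diet. Anxa8, Anxa1 and Anxa2 were higher with HFD by 1.79-fold, 1.71-fold and 1.54-fold, and Anxa7 by 1.37-fold. Anxa4, Anxa5 and Anxa6 had log2 fold changes between -0.12 and 0.19, and the low-level genes Anxa3 and Anxa11 varied widely between replicates. In bulk samples fewer cells of a type and less RNA per cell cannot be told apart. Of the 9 members, all of which passed the filter on low counts, 3 were called higher and 0 lower by edgeR's quasi-likelihood test at an adjusted p under 0.05. Over all 14479 genes tested 1.12% were called higher, 0.228% lower and 1.35% either way, and since the members were chosen with this comparison known, nothing is read from their share. The diets did not overlap for 7 of 9 members, against 44.6% of all genes tested. The median log2 fold change of the members was 0.46, against 0.0018 over all genes tested.

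**Figure D2:**
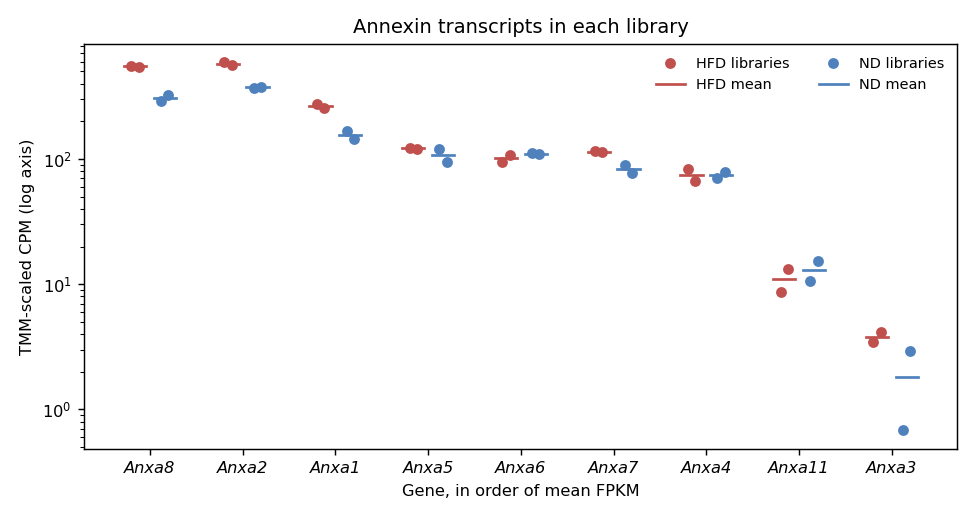
Points give the TMM-scaled CPM of each annexin gene in each library on a log axis, with HFD left of ND for each gene, and bars give the mean of the 2 libraries of a diet. Both HFD points of Anxa8, Anxa2, Anxa1 and Anxa7 lie above both ND points, and those of Anxa4 and Anxa11 are mixed with them.

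Anxa2 forms a heterotetramer with the S100 protein encoded by S100a10, which binds its tail and links it to the membrane cytoskeleton and to plasminogen activation. The gene lies on chromosome 9 at positions 69453620 to 69491795 (plus strand). It stood at 591 and 563 CPM with HFD, against 372 and 377 CPM with ND, means of 577 ± 19.8 and 375 ± 3.54 CPM (SD, n = 2 each). Both HFD libraries lay above both ND libraries, and the gap exceeded the spread within either diet. The log2 fold change was 0.62 with a standard error of 0.11. It stayed between 0.59 and 0.66 when each library in turn was left out.

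Anxa1, the glucocorticoid-regulated annexin that restrains inflammation through formyl peptide receptors, is a substrate of the EGF receptor kinase and is cross-linked into the cornified envelope. It lies on chromosome 19 at positions 20373428 to 20390944 (minus strand). Its levels were 275 and 255 CPM with HFD, against 166 and 144 CPM with ND, means of 265 ± 14.3 and 155 ± 15.5 CPM (SD, n = 2 each). The diets did not overlap. The log2 fold change was 0.78 ± 0.13 (SE), and it ranged from 0.67 without ND replicate 2 to 0.88 without ND replicate 1. A long noncoding gene on the opposite strand of this locus, 1500015L24Rik, had 1 count in all 4 libraries together, far under the level of Anxa1.

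Anxa8, first described in human placenta as an anticoagulant protein, binds membranes with its calcium-loaded core and has a short tail. The gene lies on chromosome 14 at positions 34085981 to 34100571 (plus strand). Anxa8 had 555 and 544 CPM with HFD, against 290 and 325 CPM with ND, means of 550 ± 7.98 and 307 ± 24.5 CPM (SD, n = 2 each). The HFD libraries agreed closely and lay far above both ND libraries. The log2 fold change was 0.84 ± 0.12 (SE), with a range of 0.76 to 0.92 over the fits that left out 1 library. A630023A22Rik, annotated across it on the opposite strand, had 0 and 0 counts with HFD, against 3 and 0 counts with ND.

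Leaving out 1 library left a diet with 1, so that the pair of the other diet gave the whole spread and the lone library was assumed to vary like it. Few genes of any kind passed in such fits. Without ND replicate 1 edgeR called 0 of 14479 genes, with 10.3% at an unadjusted p under 0.05, and without ND replicate 2 it called 3 genes (0.0207%), with 16.6%. In both fits 0 of the 9 members were called, with 5 at an unadjusted p under 0.05. Without HFD replicate 1 and without HFD replicate 2 it called 83 and 58 genes (0.573% and 0.401%), and Anxa8 alone of the members each time. At an unadjusted p under 0.05 these 2 fits had 3 and 4 members, and 7.61% and 8.23% of all genes. With libraries scaled to equal sums of TPM 0 members and 0.642% of all genes were called, with 3 members and 10.5% of all genes at an unadjusted p under 0.05. Limma on log2(FPKM + 1) called 0 members and 2 genes in all (0.0138%), with 4 members and 14.4% of all genes at an unadjusted p under 0.05, although the log2 fold changes of Anxa8, Anxa1 and Anxa2 were then still 0.75, 0.68 and 0.53. DESeq2 called the same 3 members, and 2.72% of all genes. Since the members were chosen with this comparison known, their counts in all these fits are a description and no test of the family.

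**Figure D3:**
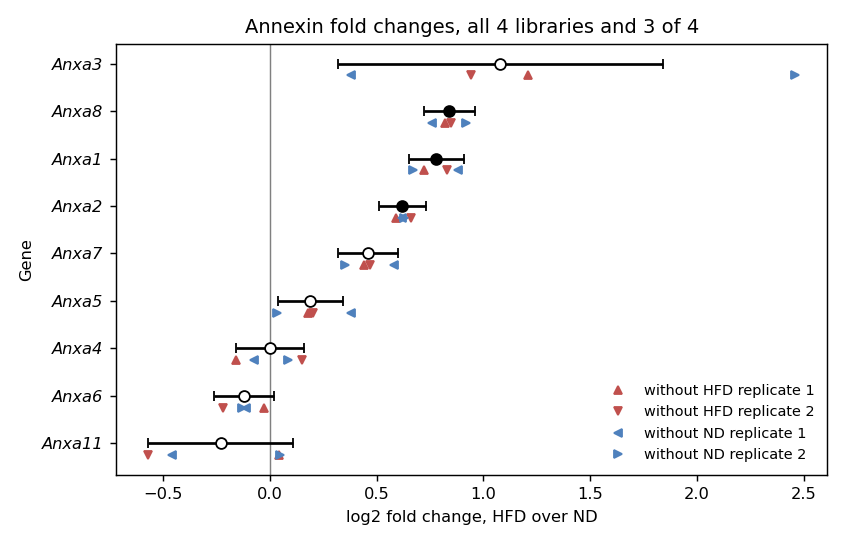
Circles give each gene's log2 fold change, HFD over ND, from edgeR with all 4 libraries, with bars of 1 standard error, and filled circles mark called genes. Triangles give the value with 1 library left out: those of Anxa8, Anxa1 and Anxa2 stay between 0.59 and 0.92, while those of Anxa3 run from 0.38 to 2.46.

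Among the members that were not called, Anxa7 came nearest. Anxa7, also known as synexin, promotes membrane fusion and has a long tail that binds the calcium sensors sorcin and ALG-2. It had 115 and 113 CPM with HFD, against 89.3 and 76.7 CPM with ND. The diets did not overlap, the log2 fold change was 0.46 ± 0.14 (SE), and it lay between 0.35 and 0.58 with 1 library left out. Anxa11, the other long-tailed annexin and an adaptor between RNA granules and lysosomes, had 8.69 and 13.3 CPM with HFD, against 10.6 and 15.2 CPM with ND. These values were mixed, and the log2 fold change of -0.23 ± 0.34 (SE) was 0.05 without ND replicate 2 and 0.04 without HFD replicate 1. Both genes lie on chromosome 14, as Anxa8 does, but far apart: Anxa7 at 20455260 to 20480133 (minus strand) and Anxa11 at 25842156 to 25886804 (plus strand).

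Anxa5, which assembles a lattice on exposed phosphatidylserine, had 123 and 121 CPM with HFD, against 120 and 94.6 CPM with ND. ND replicate 1 was close to the HFD libraries and ND replicate 2 stood below them. The log2 fold change was 0.19 ± 0.15 (SE), and it was 0.38 without ND replicate 1 and 0.03 without ND replicate 2. Anxa6, a scaffold at the plasma membrane and endosomes, had 94.4 and 108 CPM with HFD, against 111 and 110 CPM with ND, a log2 fold change of -0.12 ± 0.14 (SE). Both HFD libraries were lower than both ND libraries, but the HFD libraries differed more from each other than the upper one did from ND. Anxa4, which is abundant in secretory and simple epithelia and slows the lateral movement of membrane lipids, had 82.6 and 66.4 CPM with HFD, against 70.1 and 78.7 CPM with ND. Its libraries were mixed, with a log2 fold change of 0.0013 ± 0.16 (SE).

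Anxa3, an annexin of neutrophil granules, was detected at a low level, with 29 and 35 counts with HFD, against 7 and 28 counts with ND. ND replicate 1 stood apart, and the ND libraries differed 4.31-fold in CPM. The log2 fold change of 1.08 ± 0.76 (SE) was 0.38 without ND replicate 1 and 2.46 without ND replicate 2. The bulge, basal, suprabasal, fibroblast, endothelial, immune and adipocyte marker sums were lowest in the same ND library. The upper follicle and melanocyte sums were highest there. The part of any of these cell types in the Anxa3 values was not tested. Anxa9, which the list does not hold although its level exceeded that of Anxa3, had 43 and 45 counts with HFD, against 36 and 17 counts with ND (log2 fold change 0.99 ± 0.57, SE; edgeR adjusted p = 0.504). Anxa10 and Anxa13 had 0 counts in all libraries, and the antisense gene Anxa11os had 1 count in ND replicate 2.

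Within the family the profiles over the 4 libraries fell close together for some genes. Likeness was measured as the root mean square difference of log2 CPM, each gene centred on its own mean, so that smaller is more alike. The nearest member to Anxa1, to Anxa8 and to Anxa7 was Anxa2 in each case, at 0.112, 0.122 and 0.116, whereas Anxa3 was at least 0.756 from every other member. Among 4304 genes with a mean of at least 10 FPKM, the 5 nearest to Anxa8 were the class I histocompatibility gene H2-D1 (0.053), the glycolipid transfer protein gene Gltp (0.061), the desmoplakin gene Dsp (0.066), the mitochondrial creatine kinase gene Ckmt1 (0.069) and Lars2 (0.070), against a median of 0.468. All these distances rest on the same 4 libraries and describe them only.

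Set against the marker sums, the members' summed CPM was 0.119 and 0.126 of the basal marker sum with HFD, against 0.123 and 0.106 with ND, so that the diets overlapped on this ratio. Krt5, at a mean of 7853 CPM, dominates that sum. Gene by gene the basal list had a median log2 fold change of 1.35, with 3 of 6 called higher, against the annexin median of 0.46. Relative to the bulge markers the members' summed CPM was 0.293 and 0.285 with HFD, against 0.213 and 0.194 with ND. Relative to the suprabasal markers it was 0.460 and 0.359 with HFD, against 1.03 and 0.449 with ND. The part of the basal and suprabasal shifts in the annexin difference was not tested.

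Genes related to the annexins were followed in 5 lists, of which the copine and glucocorticoid lists are not lists of annexin partners. Together the lists hold 62 genes, of which 51 were tested. Of these 1 was higher and 0 were lower (edgeR, adjusted p under 0.05), or 1.96% higher, against 1.12% higher and 0.228% lower over all genes tested. The median log2 fold change was 0.17, against 0.0018 over all genes tested. These lists were chosen with earlier results of these data known, so their calls and p-values are a description and no test of the lists. The gene called was Ahnak, which encodes a giant scaffold that binds the Anxa2 and S100a10 complex under the plasma membrane. It rose to 3293 and 3509 CPM with HFD, against 1939 and 1764 CPM with ND, a log2 fold change of 0.88 ± 0.11 (SE; edgeR adjusted p = 0.00386), and the log2 fold change lay between 0.81 and 0.95 with 1 library left out. Ahnak was called without HFD replicate 1 and without HFD replicate 2, and not called in the fits without ND replicate 1 or ND replicate 2, in which 0 and 3 genes of all passed.

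Of the 12 tested genes among the S100 and direct partners, Ahnak was the 1 called, 9 had positive log2 fold changes and the median was 0.41. Over all 14479 genes tested 7257 had positive log2 fold changes. S100a10 stood at 209 and 180 CPM with HFD, against 165 and 148 CPM with ND (log2 fold change 0.32 ± 0.13, SE; edgeR adjusted p = 0.339). S100a11, a partner of Anxa1, had 217 and 179 CPM with HFD, against 147 and 129 CPM with ND (0.52 ± 0.14, SE; edgeR adjusted p = 0.12). S100a6, a calcyclin that binds Anxa2 and Anxa11, had 337 and 354 CPM with HFD, against 230 and 256 CPM with ND (0.51 ± 0.12, SE; edgeR adjusted p = 0.071). In all 3 the HFD libraries lay above the ND libraries, without passing the test, while DESeq2 called S100a11 and S100a6. Per exonic length, Anxa2 transcripts were 0.917 and 1.02 times those of S100a10 with HFD, against 0.734 and 0.83 times with ND. Anxa1 transcripts were 0.223 and 0.25 times those of S100a11 with HFD, against 0.198 and 0.195 times with ND. Of the formyl peptide receptor genes through which annexin A1 acts, Fpr1 and Fpr3 had 0 counts and Fpr2 had 1 count in HFD replicate 2, under the floor of 3 counts per library.

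The other lists held 0 genes called by edgeR. Over all genes tested 13.3% reached an unadjusted p under 0.05 and DESeq2 called 2.72%. Among 12 plasma membrane repair genes, of which 3 higher and 1 lower, Ehd1, reached an unadjusted p under 0.05 (33.3%) and DESeq2 called 1, the caveolin gene Cav1, the median was 0.14. The most abundant were the caveolar coat gene Cavin1, the ESCRT-III gene Chmp4b and the calpain gene Capn1, with log2 fold changes of 0.22 ± 0.12, 0.05 ± 0.13 and 0.27 ± 0.15 (SE). Among 13 genes that expose or read phosphatidylserine, with 1 (7.69%) at an unadjusted p under 0.05 and 0 called by DESeq2, the median was 0.17. Here Gas6, a bridging ligand, and its receptors Axl and Mertk had 0.17 ± 0.14, 0.31 ± 0.14 and -0.17 ± 0.16 (SE). The 4 copine genes tested, a further family of calcium-dependent phospholipid binders, had a median of 0.13 and 0 genes at an unadjusted p under 0.05 or called by DESeq2, with 0.15 ± 0.21 for Cpne8, 0.03 ± 0.16 for Cpne3 and 0.11 ± 0.28 for Cpne2 (SE). The glucocorticoid list held 10 genes, known targets of the hormone and the gene of its receptor, Nr3c1. Of these 8 had positive log2 fold changes, with a median of 0.56. At an unadjusted p under 0.05 stood 7 (70.0%), of which 6 were higher and 1 lower, and DESeq2 called 0. The lower gene, named after its values were seen, was the chaperone gene Fkbp5, with 29.4 and 27.0 CPM with HFD, against 43.4 and 41.5 CPM with ND (log2 fold change -0.59 ± 0.19, SE; edgeR adjusted p = 0.195). Tsc22d3, Zbtb16, Dusp1 and Klf9, also named after their values were seen, went the other way. Their log2 fold changes were 0.75 ± 0.28, 0.74 ± 0.30, 0.72 ± 0.26 and 0.61 ± 0.22 (SE). Nr3c1 had a log2 fold change of 0.11 ± 0.13 (SE). The metallothionein genes Mt2 and Mt1 and the kinase gene Sgk1 had 0.74 ± 0.21, 0.13 ± 0.19 and 0.52 ± 0.20 (SE). None of the genes named in these 4 lists passed the test, with edgeR adjusted p between 0.0994 for Cav1 and 0.969 for Cpne3, although Mt2 and Sgk1 were called without the filter on low counts and Mt2 with the replicate block.

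**Figure D4:**
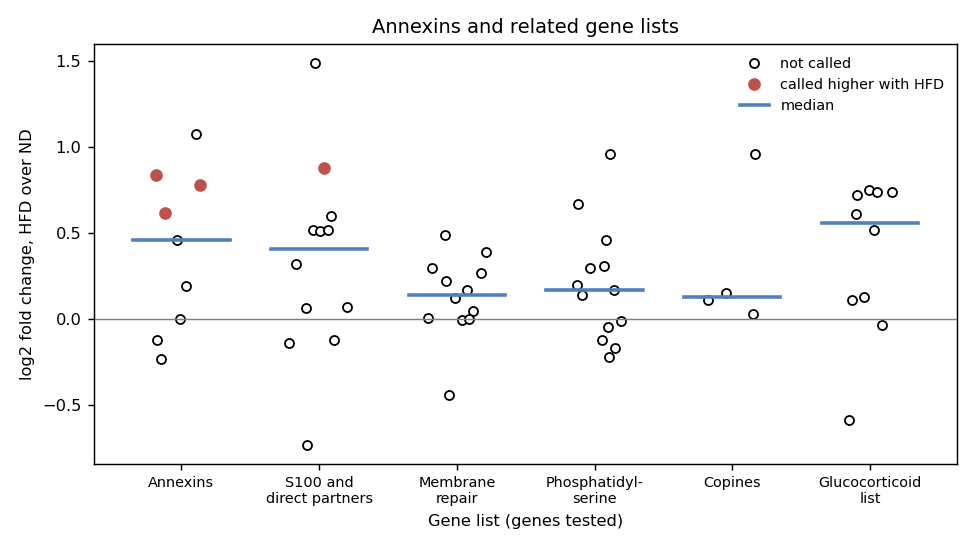
Points give the log2 fold change, HFD over ND, of each tested gene of the annexin family and of the 5 related lists, blue bars give the median of a list, and red points mark genes called higher. Called genes are Anxa8, Anxa1 and Anxa2 in the family and Ahnak among the partners, and list medians run from 0.13 for the copines to 0.56 for the glucocorticoid list.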

How the data were processed

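The authors deposited 1 table with raw counts and FPKM for each gene and library. The deposited FPKM equal count divided by exonic length and library total within 0.005, which was checked here. The submitters' processing notes name HISAT2 2.0.1, cutadapt 1.9.1 and bcl2fastq 2.17.1.14. The counter, its use of strand and the genome build were not given in the sources used here. Positions match the GENCODE vM21 annotation (GRCm38) for 54821 of 55401 genes, all members included.

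Counts were fitted in R 4.3.3 with edgeR 4.0.16 (TMM, default filter by group of about 10 counts in at least 2 libraries and 15 in total, quasi-likelihood test, Benjamini-Hochberg adjustment over 14479 genes), and standard errors are the fold change over the root of F. CPM use TMM, and SDs are over 2 libraries. Scripts were tested on simulated counts. DESeq2 1.42.0, limma 3.58.1 (pseudocounts 1 and 0.1), other filters and scalings, a replicate term and leaving out each library were alternatives.

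Members and lists were chosen with earlier results of these data known. Named genes were all annexins, S100a10, S100a11, S100a6, called genes of a list and its 3 most abundant. The genes nearest in profile to Anxa3 are not reported here. The formyl peptide receptors, genes overlapping members, promoter motifs and ratios to marker sums were added after values were seen. The floor of 3 counts covers counting error only.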

Additional observations from a re-analysis of the deposited data

How the results depend on the processing

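Of 9 members 3 were called, and the count was 0 with equal sums of TPM, limma on log2(FPKM + 1) and limma on log2(FPKM + 0.1) (3, 4 and 4 members at an unadjusted p under 0.05), and 0 to 1 with a library left out. Related genes called, 1 of 51, were 6 without the filter, 2 at a mean FPKM of at least 1, 4 with DESeq2, 0 with limma at either pseudocount (9 and 10 at an unadjusted p under 0.05), 3 at an adjusted p under 0.1, 2 with the replicate block, and 0 to 1 with a library left out. Beside Ahnak these were S100a6, S100a11, S100a4, Mt2 and Sgk1 without the filter, S100a6 at a mean FPKM of at least 1, S100a6, S100a11 and Cav1 with DESeq2, S100a6 and Cav1 at an adjusted p under 0.1, and Mt2 with the replicate block. All genes called, 195, were 633 without the filter, 93 with equal sums of TPM, 394 with DESeq2, 2 with limma at either pseudocount, 381 at an adjusted p under 0.1, 419 with the replicate block, and 0 to 83 with a library left out. A fit without 1 library rests on the spread of 1 pair, and calls fell over all genes in it. The cause of this fall and of the other shifts was not tested. Counts for the members describe genes chosen with this comparison known.

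The log2 fold change of Anxa4, 0.0013, was -0.0088 without the filter, -0.0031 with DESeq2 size factors, -0.085 with library totals, -0.069 with equal sums of TPM, -0.0032 with DESeq2, -0.086 and -0.091 with limma and -0.0042 with the replicate block, and -0.16 to 0.15 with a library left out. That of Anxa11 was -0.57 to 0.049 with a library left out. Deviations of same-numbered libraries had a correlation of -0.00463 across genes. With 2 libraries per diet this cannot show whether the numbers pair the libraries, which the labels do not state. The block left the 3 members called, while all genes called were 419 with it, against 195 without it. At 7 to 35 counts per library, Anxa3 had a standard error of 0.76.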

Other observations

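Small and noncoding genes inside or beside annexin loci had few counts, and they are named after their values were seen. Mir3109, annotated within Anxa2 on the same strand, had 4 and 18 counts with HFD, against 1 and 0 counts with ND. Gm44036, a long noncoding gene that overlaps the end of Anxa4 on the opposite strand, had 9 and 7 counts with HFD, against 0 and 0 counts with ND. Gm42603, within Anxa3, had 4 and 4 counts with HFD, against 0 and 4 counts with ND. The counts of Anxa3 and Gm42603 were both lowest in ND replicate 1.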
